A study of Mus musculus with 10 samples.

Results

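The pyruvate dehydrogenase complex and its regulators were described across 10 leukemic mouse spleens. The 10 genes were picked by symbol from a table of 16865 genes. They encode the catalytic subunits (Pdha1, Pdhb, Dlat, Dld), the inhibitory kinases (Pdk1, Pdk2, Pdk3), the activating phosphatases (Pdp1, Pdp2) and the phosphatase regulatory subunit Pdpr. Pdpr was included because its fall was among the largest in the comparison described here, so its difference is given as a description without a test. The other 9 genes were listed for their role, with earlier results of these data known. All 10 passed the filter on low values, a normalized count of at least 10 in 5 or more libraries.

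All spleens came from C57BL/6 mice that were irradiated below a lethal dose and given, by vein, T cell acute lymphoblastic leukemia (T-ALL) carrying a conditional Sirt1 allele. Sirt1 is a NAD-dependent protein deacetylase. The control group (n = 5) was injected intraperitoneally with corn oil, and the Sirt1 deleted group (n = 5) with 3 mg of tamoxifen per mouse in corn oil. Tamoxifen and deletion therefore cannot be told apart. The labels used here give neither the driver of the recombinase, nor the age of the mice, nor which primary leukemia each recipient carried. P-values therefore set a group difference only against the spread between these samples. They take the samples as independent, which the labels do not show. Library numbers follow the order of the series and pair nothing.

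Pyruvate dehydrogenase sits in the mitochondrial matrix and turns pyruvate, the end product of glycolysis, into acetyl-CoA for the citric acid cycle. It is switched off when a pyruvate dehydrogenase kinase phosphorylates the alpha subunit of its first enzyme, and switched on again when a pyruvate dehydrogenase phosphatase removes the phosphate. The regulatory subunit Pdpr binds the catalytic subunit Pdp1 and lowers its sensitivity to magnesium. Proliferating T cells and T lineage leukemias are known for rapid glycolysis, which makes this switch a branch point between lactate and mitochondrial oxidation.

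The upstream sequences of Pdpr and Pdp2, the members with the largest falls, are shown beside that of Pdk1, a transcript of similar length whose level differed by little. They are RefSeq sequences of build GRCm38.p6, plus strand, 5′ to 3′, and stop before the first transcribed base that RefSeq or GENCODE annotates. Capitals mark matches on either strand to 4 motifs chosen after the sequences were read.
Pdpr, chr8:111094495-111094629: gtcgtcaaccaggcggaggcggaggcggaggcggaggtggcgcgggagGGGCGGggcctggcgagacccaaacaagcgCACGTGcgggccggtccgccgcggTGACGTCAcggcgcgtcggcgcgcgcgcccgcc
Pdp2, chr8:104591222-104591450: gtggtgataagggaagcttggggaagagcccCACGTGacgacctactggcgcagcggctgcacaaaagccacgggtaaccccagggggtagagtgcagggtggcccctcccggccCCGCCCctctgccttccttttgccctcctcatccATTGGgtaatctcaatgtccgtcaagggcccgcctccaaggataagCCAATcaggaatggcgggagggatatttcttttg
Pdk1, chr2:71872974-71873223: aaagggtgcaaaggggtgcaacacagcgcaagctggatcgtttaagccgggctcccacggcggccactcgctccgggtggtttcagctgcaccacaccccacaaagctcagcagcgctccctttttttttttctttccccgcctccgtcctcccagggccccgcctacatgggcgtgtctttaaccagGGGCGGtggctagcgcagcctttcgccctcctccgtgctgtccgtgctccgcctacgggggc

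Both Pdpr and Pdp2 held the E-box CACGTG, the element of MYC, MAX and USF factors, at 172 and 219 bases before their RefSeq starts. That motif was present in 7.15% of all 32851 RefSeq windows of 300 bases (250 before to 50 after a start), and among the members also in a Pdk2 window. Pdpr alone among the members with an entry held the cyclic AMP response element TGACGTCA, 148 bases before its start, found in 1.79% of all windows. The CCAAT box, letters CCAAT, was in 37.4% of all windows and in 5 of the 11 windows of members. The GC box GGGCGG was in 35.7% and in 6 of the 11. Because the motifs were chosen after the sequences were read, these shares cannot show that a match is unusual. Of the 10 members 9 had an entry in the promoter table, and Pdp1 had none. A match is a string of letters and shows no binding.

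The targeted gene was checked first. Sirt1 ranged from 1126 to 1348 normalized counts in the control libraries and from 710 to 1071 in the Sirt1 deleted libraries, without overlap (log2 difference -0.44, SE 0.107, limma adjusted p = 0.0125). The Sirt1 difference was -0.25 after correction for transcript length and GC content (0.0289), -0.27 without the 3 libraries of steepest length slope (0.128) and -0.00057 with that slope as a covariate (0.999), the slope being each library's trend with transcript length, described further on. The table gives 1 value per gene and cannot show the loss of an exon. Normalized counts summed to 33.6 to 34.8 M per library, which corresponds, from the spacing of the low values, to an estimated 21.2 to 44.4 M reads. Of 16 T cell and thymocyte markers all 16 were measured, of which 4 rose, 2 fell and 10 did not pass, and they summed to 322209 to 347784 normalized counts in the control group and 313207 to 356303 in the deleted group. B cell markers (3 of 9 tested rose, 0 fell) summed to 251 to 338 in the control group and 311 to 501 in the deleted group, and neutrophil markers (2 of 9 rose, 0 fell) to 1556 to 4532 and 2112 to 9329. Of 12 macrophage markers 7 fell, 0 rose and 5 did not pass, and their sum ranged from 11209.5 to 16504 in the control group and from 6443 to 10472 in the deleted group. Red cells had been lysed, per the labels, and erythroid markers (3 of 10 fell, 0 rose) still summed to 360164 to 452663 in the control group and 170230.0 to 391220.0 in the deleted group. Over all genes tested, 14.5% were called higher and 17.5% lower. The sums overlapped between the groups for every marker set except that of macrophages. In bulk RNA, fewer cells of a type and less RNA per cell cannot be told apart.

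**Figure D1:**
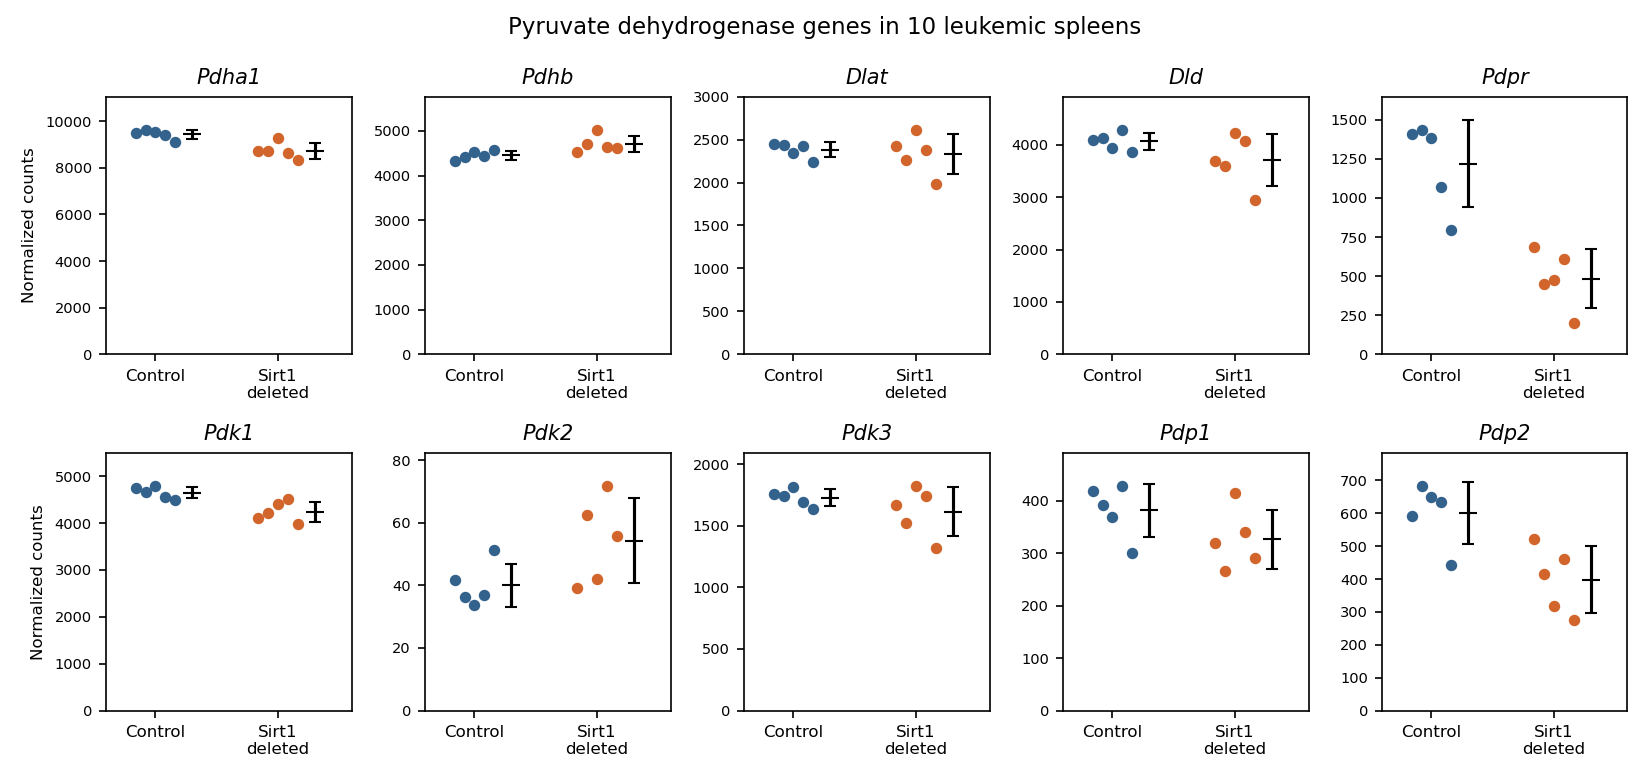
Normalized counts of the 10 genes in each library, control in blue and Sirt1 deleted in orange, with the mean and SD of each group as black bars; every vertical axis starts at 0. The Pdpr groups do not overlap (796 and above against 686 and below), while the groups of the other 9 genes do.

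Of the 9 members other than Pdpr, limma called 1 lower (Pdp2) and 0 higher at an adjusted p of 0.05, and 8 did not pass. Over all 13567 genes tested, 32.0% were called, 17.5% lower and 14.5% higher, so the share of members called was not above the background. The 9 genes had a median log2 difference of -0.11, against 0.00097 over all genes tested. The count of members called lower was 0 without control library 2, 2 without Sirt1 deleted library 4 and 4 without Sirt1 deleted library 3. Group values overlapped for all 9, whereas they did not overlap for 16.5% of all genes (8.18% with the deleted group lower).

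Among the phosphatase genes, Pdpr and Pdp2 had the lowest deleted means relative to control of the 10 members, Pdpr having been chosen for its fall. Pdpr (ENSMUSG00000033624, chromosome 8, 111094630 to 111137074, plus strand, GRCm38) held 1410, 1434, 1386, 1071 and 796 normalized counts in control libraries 1 to 5. It held 686, 446, 478, 609 and 198 in Sirt1 deleted libraries 1 to 5. Every deleted library was below every control library, and control library 5 and Sirt1 deleted library 1 were nearest to each other. The means were 1219 ± 279 and 483 ± 187 (SD, n = 5 each), so that the deleted group stood at 39.6% of the control mean. The log2 difference was -1.41, the fall of rank 28 among 13567 genes. About 201 to 1660 reads lay behind each value, a counting error of 7.05% to 2.45% that leaves out all other error.

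Pdp2, a catalytic subunit of the phosphatase (chromosome 8, 104591451 to 104599026), held 590, 682, 648, 636 and 441 normalized counts in control libraries 1 to 5. Sirt1 deleted libraries 1 to 5 held 522, 416, 319, 460 and 275. Only control library 5 fell within the range of the deleted group. Pdp2 fell from 599.6 ± 94.4 to 398 ± 101 (SD, n = 5; log2 difference -0.61, SE 0.169, limma adjusted p = 0.0183). The adjusted p was 0.0533 without control library 2, and over the 22 alternatives it ranged from 0.00747 to 0.992.

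Pdp1, the other catalytic subunit (chromosome 4, 11958184 to 11966452), held 418, 392, 368, 427 and 301 normalized counts in control libraries 1 to 5. It held 319, 265, 414, 340 and 291 in Sirt1 deleted libraries 1 to 5. The groups overlapped widely. Means were 381 ± 50.6 and 326 ± 56.8, and the log2 difference of -0.23 (95% interval -0.51 to 0.04) did not pass (limma adjusted p = 0.172). Without Sirt1 deleted library 3, the highest of its group, the difference was -0.32 and the adjusted p 0.0495. Pdp1 passed in that 1 of 22 alternatives only, and the adjusted p ranged up to 0.978.

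None of the kinases passed the test. Pdk1 (chromosome 2, 71873224 to 71903858) had the highest mean of the kinases per kb of transcript in both groups, though its range overlapped that of Pdk3. It held 4742, 4668, 4784, 4564 and 4491 normalized counts in control libraries 1 to 5. In Sirt1 deleted libraries 1 to 5 it held 4111, 4214, 4412, 4506 and 3972. Of the deleted libraries, 4 lay below every control and library 4 lay just above control library 5. The means were 4650 ± 122 and 4243 ± 218. The log2 difference of -0.13 (SE 0.0491, 95% interval -0.24 to -0.03) narrowly missed the threshold (limma adjusted p = 0.0536). It passed in 4 of 22 alternatives. These were a minimum of 50 normalized counts (0.0454), equal library totals (0.0451), and leaving out Sirt1 deleted library 3 (0.0445) or 4 (0.0371). Quantile normalization gave -0.06 (0.342), and over all 22 the limma adjusted p ranged from 0.0371 to 0.987.

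Pdk3 (X chromosome, 93764607 to 93832201) held 1757, 1738, 1816, 1693 and 1638 normalized counts in control libraries 1 to 5. Sirt1 deleted libraries 1 to 5 held 1670, 1522, 1820, 1741 and 1323. The deleted group reached both above and below the control group. Its log2 difference was -0.11 (95% interval -0.28 to 0.07, limma adjusted p = 0.319), and -0.04 without Sirt1 deleted library 5.

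Pdk2 (chromosome 11, 95026258 to 95041354) was scarce and stood apart from the other kinases in sign. It held 41.7, 36.3, 33.8, 37.0 and 51.2 normalized counts in control libraries 1 to 5 and 39.3, 62.6, 42.1, 71.6 and 55.8 in Sirt1 deleted libraries 1 to 5. In 3 of 5 deleted libraries it was above every control. The log2 difference of 0.41 (95% interval -0.01 to 0.83) did not pass (limma adjusted p = 0.117). Only about 26.0 to 82.1 reads stood behind each Pdk2 value, a counting error of up to 19.6%. An antisense transcript overlaps the gene, and the use of strand in counting is not given in the sources used here.

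None of the subunits of the complex itself passed the test. Pdha1, the alpha subunit of the first enzyme and the target of the kinases (X chromosome, 160122209 to 160138413), held 9509, 9614, 9533, 9417 and 9110 normalized counts in control libraries 1 to 5. It held 8699, 8710, 9270, 8632 and 8321 in Sirt1 deleted libraries 1 to 5. Of the deleted libraries, 4 were below every control. The log2 difference was -0.11 (SE 0.0449, 95% interval -0.21 to -0.02, limma adjusted p = 0.0679). It passed in 1 of 22 alternatives, without Sirt1 deleted library 3 (0.0353), and the adjusted p ranged up to 0.985.

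Pdhb, the beta subunit of the same enzyme (chromosome 14, 8165996 to 8173025), leaned the other way. It held 4325, 4413, 4529, 4428 and 4563 normalized counts in control libraries 1 to 5 and 4535, 4713, 5016, 4647 and 4624 in Sirt1 deleted libraries 1 to 5. Of the deleted libraries, 4 were above every control. The log2 difference was 0.08 (SE 0.0453, 95% interval -0.02 to 0.18, limma adjusted p = 0.186). With quantile normalization it was 0.16 and passed (0.0294). That was the only 1 of 22 alternatives in which Pdhb passed, and the adjusted p ranged up to 0.968.

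Because the paired subunits leaned apart, the ratio of Pdha1 to Pdhb per length of transcript averaged 1.13 ± 0.0421 among controls and 0.985 ± 0.0225 among deleted libraries (SD, n = 5). The ratio was not tested. No control library was below 1.06 and no deleted library above 1.02. The transcripts differ in length, 2848 bases for Pdha1 and 1513 for Pdhb, and after correction for length and GC content the log2 differences of Pdha1 and Pdhb were -0.07 and -0.03.

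Dlat, the acetyltransferase core (chromosome 9, 50634633 to 50659780), ranged from 2241 to 2452 normalized counts in the control group, with a median library of 2426, and from 1985 to 2611 in the deleted group, with a median library of 2375. Its log2 difference was -0.04 (95% interval -0.18 to 0.11, limma adjusted p = 0.712). Dld, the dihydrolipoamide dehydrogenase shared with related complexes (chromosome 12, 31331277 to 31351453), ranged from 3866 to 4282 in the control group and from 2943 to 4233 in the deleted group. Its log2 difference was -0.14 (95% interval -0.32 to 0.04, limma adjusted p = 0.204), and -0.06 without Sirt1 deleted library 5, its lowest library.

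Transcripts of Pdhx and Pdk4, of the same system, were measured outside the list. Pdhx, the component that anchors the dihydrolipoamide dehydrogenase to the core, ranged from 1129 to 1328 normalized counts in the control group and from 1051 to 1224 in the deleted group (log2 difference -0.08, 95% interval -0.22 to 0.06, limma adjusted p = 0.368). Pdk4, the kinase induced by fasting in other tissues, stood between 1.96 and 14.6 normalized counts in all libraries and did not pass the filter on low values.

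**Figure D2:**
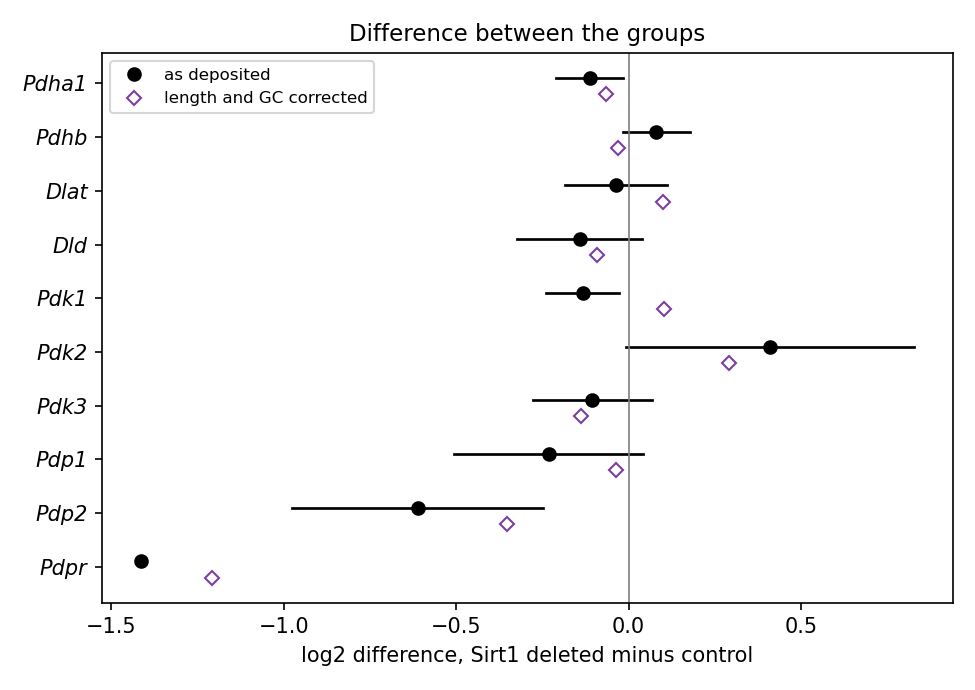
Log2 difference of each member (Sirt1 deleted minus control) as deposited, with the 95% interval from limma as a line (filled circles, no interval for Pdpr), and after correction of each library for transcript length and GC content (open diamonds). Pdpr stands at -1.41 and -1.21, Pdp2 at -0.61 and -0.35, and Pdk1, Pdhb and Dlat change sign.

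Levels of different genes were compared only as normalized counts per kb of the longest annotated protein-coding transcript. On that scale Pdha1 (3313 ± 68.6 in the control group) and Pdhb (2942 ± 63.2) led, followed by Dld (1598 ± 63.9), Pdk1 (897 ± 23.5), Pdk3 (817 ± 31.8), Dlat (590.2 ± 22.0) and Pdhx (485 ± 32.0). The phosphatase side was scarcer, with Pdpr at 247 ± 56.4, Pdp2 at 105 ± 16.6 and Pdp1 at 90.8 ± 12.0. Pdk2 (17.8 ± 3.05) and Pdk4 (1.66 ± 0.996) were last. Over all 10 libraries the ranges of Pdha1 and Pdhb overlapped, as did those of neighbours from Pdk1 to Pdhx and from Pdpr to Pdp1. Every library held more Pdhb than Dld, more Dld than Pdk1, more Pdhx than Pdpr, more Pdp1 than Pdk2 and more Pdk2 than Pdk4 on this scale.

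In the deleted group Pdpr stood at 97.9 ± 37.9 normalized counts per kb, close to Pdp1 (77.6 ± 13.5) and Pdp2 (70.0 ± 17.8). The level of Pdpr over the summed level of Pdp1 and Pdp2 averaged 1.25 ± 0.187 among controls and 0.644 ± 0.188 among deleted libraries. Since Pdpr was chosen for its fall, that ratio is a description. Pdk1 made up 51.7% ± 0.257 of the summed kinase level in the control group and 51.0% ± 2.05 in the deleted group, and Pdk3 made up 47.1% ± 0.452 and 47.4% ± 2.28. The scarce Pdk2 made up 1.03% ± 0.203 and 1.51% ± 0.390, and Pdk4 0.0962% ± 0.0581 and 0.153% ± 0.0748, and the groups overlapped for all 4 kinases. The summed level of Pdp1 and Pdp2 over that of the kinases was 0.113 ± 0.0142 and 0.0915 ± 0.00825, with overlapping groups. These levels rest on the longest transcript, and Pdp1 and Pdpr have annotated coding transcripts as short as 1881 and 639 bases.

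**Figure D3:**
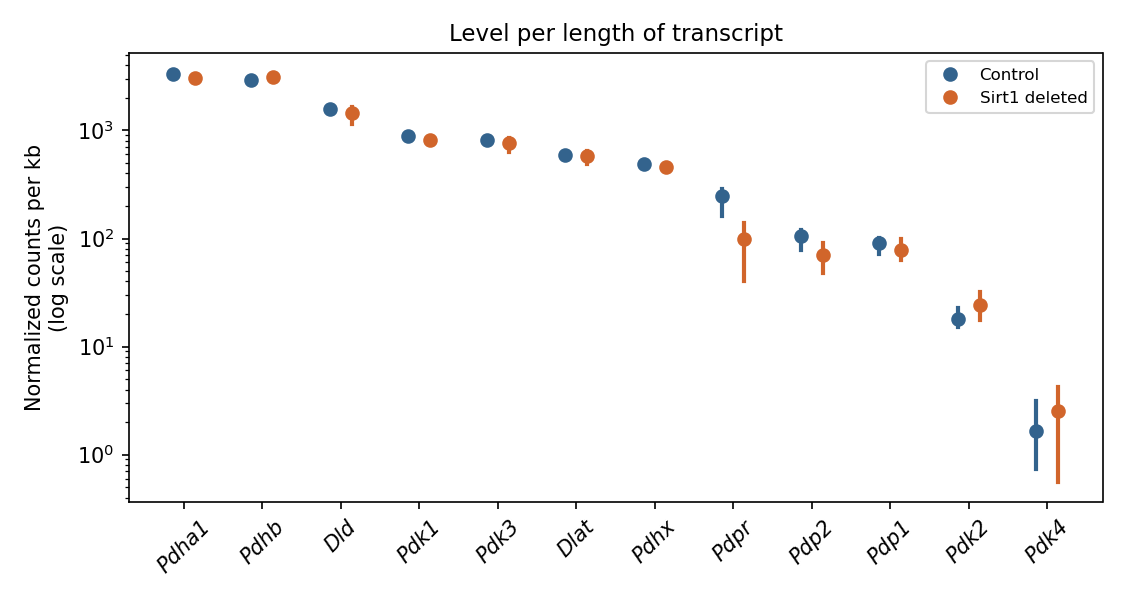
Normalized counts per kb of longest protein-coding transcript on a log scale, with the mean as a point and the lowest to highest library as a line (control blue, Sirt1 deleted orange, 5 libraries each). The first enzyme's subunits are highest in both groups, and Pdpr drops from 247 to 97.9.

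Length of transcript moved with the comparison. For each library, the change in log2 deviation from the gene means per doubling of length averaged 0.0981 ± 0.0615 among controls and -0.0981 ± 0.0862 among deleted libraries (SD, n = 5, exact permutation p = 0.00794, two-sided, the smallest that 5 against 5 allows). The longest transcripts of the set are Pdp2 (5692 bases), Pdk1 (5185), Pdpr (4938), Pdp1 (4201) and Dlat (4035). Among genes of 3607 to 5060 bases, which include Pdpr, Pdp1 and Dlat, the median log2 difference was -0.12 and 26.1% were called lower. Above 5060 bases, with Pdp2 and Pdk1, the median was -0.28 and 52.1% were called lower. Short transcripts went the other way. From 312 to 1784 bases, with Pdhb, the median was 0.234 and 44.7% were called higher. From 1785 to 2658 bases, with Pdk2, Pdk3 and Dld, the median was 0.08 and 16.6% were called higher.

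The level of Pdpr followed that slope library by library. Ranked over all 10 libraries, Pdpr and the slope gave the same order in 10 of 10, within the control group as well as within the deleted group. Control library 2 had the highest slope (0.161) and the most Pdpr, and Sirt1 deleted library 5 had the lowest slope (-0.24) and the least. After the group means were removed, the Pearson correlation over the 10 libraries was 0.96 for Pdpr, 0.86 for Dlat, 0.82 for Pdk3, 0.80 for Pdp2, 0.77 for Dld, 0.69 for Pdha1, 0.67 for Pdk1, 0.59 for Pdp1, -0.15 for Pdhb and -0.39 for Pdk2. These are descriptions over libraries that differ in depth and in length trend, which all genes of a library share.

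Corrected in each library for length and GC content, Pdpr was still lower without overlap of the groups (log2 difference -1.21). The corrected difference of Pdp2 was -0.35 and no longer passed (limma adjusted p = 0.0972), that of Pdk1 turned to 0.10 (0.107), and that of Pdp1 was -0.04. None of the 9 members other than Pdpr was called after correction, where 14.6% of 12397 genes were (6.12% lower, 8.48% higher). At an unadjusted p of 0.05, 4053 of those genes passed. With the slope as a covariate in limma the Pdpr difference was -0.00173, and without the 3 libraries of steepest slope (control 1 and 2, Sirt1 deleted 5) it was -0.95. The slopes of the groups did not overlap (0.0035 and above among controls, -0.025 and below among deleted libraries). Slope and group therefore cannot be told apart, and the covariate value does not divide the fall between them. How far the length trend enters into the fall of Pdpr was not tested beyond these values.

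**Figure D4:**
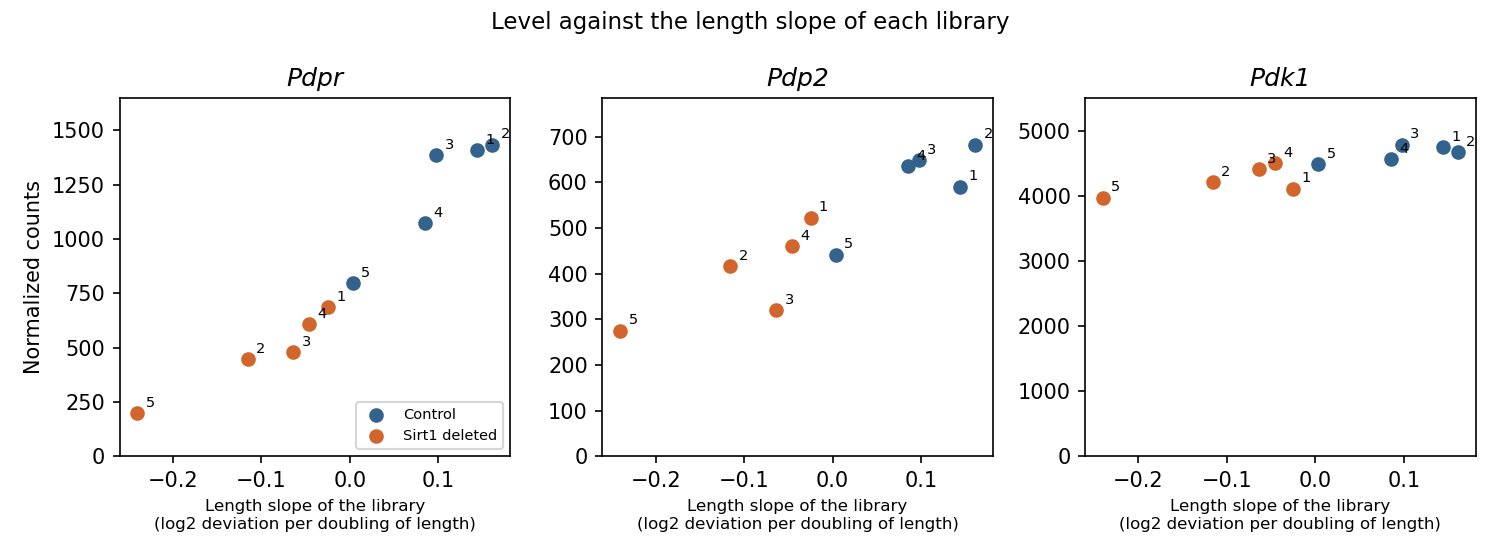
Normalized counts of Pdpr, Pdp2 and Pdk1 against the length slope of each library (log2 deviation per doubling of transcript length), control blue and Sirt1 deleted orange, numbered by library; vertical axes start at 0. Pdpr rises with the slope in the same order in all 10 libraries, from 198 to 1434, while Pdk1 stays between 3972 and 4784.

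Libraries also differed within the groups. The coefficient of variation was higher in the deleted group for 10 of 10 members, from 22.8% to 38.7% for Pdpr, from 4.0% to 13.5% for Dld and from 2.07% to 3.92% for Pdha1. For 7 of 10 members Sirt1 deleted library 5 was the lowest of all libraries. Without it the log2 difference of Pdpr was -1.12, that of Pdp2 -0.49 (limma adjusted p = 0.0289) and that of Dlat 0.02. Within groups, 35 of 45 pairs of members correlated above 0, and Dlat with Dld (0.93), Dlat with Pdk3 (0.92) and Dld with Pdk3 (0.91) were highest, over 10 libraries. The same counts were not taken over all genes, so they do not set the members apart from other genes. The length slope itself had an SD of 0.0615 among controls and 0.0862 among deleted libraries, and was lowest in Sirt1 deleted library 5.

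By the same group-centred measure, the 5 of 10431 genes most like Pdpr were Eif4ebp2 (r = 0.9953), Celf2 (0.9952), Ankrd52 (0.9948), Secisbp2l (0.9941) and Glg1 (0.9937). All 5 are long, from 5784 bases for Eif4ebp2 to 8856 for Celf2. Their log2 differences were -0.81, -0.53, -0.82, -0.53 and -1.07. The 875 genes with a correlation of 0.9 or more had a median length of 5737 bases, against 3140.5 for all compared. Pdp2, at rank 1316 (0.86), was the nearest member before correction. After correction for length and GC content, Pdhb (0.92), Pdk3 (0.92) and Dld (0.86) stood above Pdp2 (0.75), and Pdk1 was at -0.69. The 5 genes named above then ranged from 0.76 (Celf2) to 0.99 (Glg1).

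Glg1, a Golgi membrane protein gene, is the next protein-coding gene after Pdpr on chromosome 8 and is read from the opposite strand. Its nearer edge, where its transcript ends, lies 17346 bases beyond the end of Pdpr. Glg1 went from 2619 ± 519 to 1290 ± 407 normalized counts and stood at -0.77 after correction. Its position was looked up after its values were seen. The other nearby genes tested went both ways. Exosc6 was at 0.61 (limma adjusted p = 0.00851), Aars at -0.02 (0.725), Rfwd3 at -0.32 (0.0189) and Mlkl at 0.10 (0.721). On the opposite strand, 9430091E24Rik, annotated as a processed transcript, overlaps the last 8189 bases of Pdpr. It ranged from 149 to 172 normalized counts in the control group and from 147 to 193 in the deleted group (log2 difference 0.04, 95% interval -0.19 to 0.27, limma adjusted p = 0.805).

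Around the complex, 60 genes of the pathway were listed by role, of which 54 were tested. In limma 10 rose, 5 fell and 39 did not pass, with a median log2 difference of 0.0037, against 14.5% called higher and 17.5% lower over all genes. These counts moved with single libraries. Rises numbered 5 without control library 1, 6 without control library 2 and 5 without Sirt1 deleted library 2, and falls numbered 8 without Sirt1 deleted library 3. After correction for length and GC content 3 rose (Bola3, Glrx5, Acat1) and 2 fell (Acly, Hif1a), against 8.48% higher and 6.12% lower over all genes so corrected. Of the genes that rose before correction, Mrps36 (701 bases), Mpc2 (1025), Nfu1 (1195), Gcsh (1443) and Slc25a1 (1666) were short. Among all genes of 312 to 1784 bases 44.7% were called higher, and the other risers were longer.

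Of 10 genes that supply lipoate and thiamine pyrophosphate, the cofactors of the complex, 4 rose, 0 fell and 6 did not pass, where 14.5% of all genes rose. After correction 2 of the 10 were called higher, where 8.48% of all genes were. Bola3, an iron-sulfur cluster factor needed for lipoate synthesis, rose from 1044 ± 108 to 1456 ± 162 normalized counts without overlap (log2 difference 0.48, SE 0.0899, limma adjusted p = 0.00797, corrected 0.44). Glrx5 and Nfu1, of the same iron-sulfur route, rose by 0.25 and 0.20. Lias, the lipoate synthase, was at -0.02 (limma adjusted p = 0.837). Corrected, Glrx5 stayed called at 0.25 and Nfu1 was at 0.01.

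Of 13 genes of pyruvate supply and use, 1 rose and 12 did not pass, where 14.5% of all genes rose and 17.5% fell. Mpc2, a subunit of the mitochondrial pyruvate carrier, rose from 755 ± 102 to 1039 ± 126 (log2 difference 0.46, limma adjusted p = 0.00999, corrected 0.21 and not called). Its partner Mpc1 was at 0.18 (0.0515). Pkm, the pyruvate kinase of proliferating cells, was at -0.05 (0.494) and Ldha, which makes lactate from pyruvate, at -0.00296 (0.97). Pyruvate carboxylase, Pcx, was at -0.45 with a wide 95% interval of -0.93 to 0.03.

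Of 6 genes that make or use acetyl-CoA or carry citrate, 2 rose, 1 fell and 3 did not pass. Over all genes 14.5% rose and 17.5% fell. ATP citrate lyase, Acly, fell from 13021 ± 1189 to 9456 ± 1578 (log2 difference -0.47, limma adjusted p = 0.0108, corrected -0.35). The citrate carrier Slc25a1 rose by 0.26 (0.0157) with a corrected 0.03 that was not called, and Acat1 rose by 0.17. Citrate synthase, Cs, was at -0.00201 (0.979).

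Of 12 genes of the sister dehydrogenases and the glycine cleavage system, 2 rose, 1 fell and 9 did not pass. Of all genes 14.5% rose and 17.5% fell. Mrps36, a small protein tied to the oxoglutarate dehydrogenase complex and also counted with the mitochondrial ribosome, rose by 0.39 (limma adjusted p = 0.00936, corrected 0.10 and not called). Gcsh rose by 0.20 and Dbt fell by 0.23, and neither was called after correction. Ogdh was at -0.14 (0.0851) and the branched-chain kinase Bckdk, a relative of the Pdk genes, at 0.05 (0.463).

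Among 12 regulators, 3 fell, 1 rose and 8 did not pass, where 17.5% of all genes fell and 14.5% rose. Hif1a, the hypoxia factor known to induce Pdk1, fell from 4255 ± 479 to 2747 ± 676 normalized counts without overlap (log2 difference -0.67, limma adjusted p = 0.0122, corrected -0.44 and still called). Foxo1 and Foxo3, known to induce Pdk4, fell by 0.46 (0.00844) and 0.73 (0.0167), and neither was called after correction (-0.11 and -0.47). Esrra, an orphan receptor of mitochondrial genes, rose by 0.30 (0.0134, corrected 0.09). Sirt3, Sirt4 and Sirt5, mitochondrial sirtuins that act on the complex, were at 0.01, 0.26 and 0.12, and none passed (0.949, 0.0612 and 0.274).

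Marker sets of B cells, macrophages and neutrophils were also entered as covariates in limma, with these values for the members. With the B cell markers the log2 difference of Pdpr was -1.18 and that of Pdp2 -0.70 (adjusted p = 0.154). With the macrophage and neutrophil markers Pdpr was at -1.67 and Pdp2 at -0.86 (adjusted p = 0.123). Without covariates the differences were -1.41 for Pdpr and -0.61 for Pdp2, and Pdp2 was not called in either setting. Across all genes 1 was called in the first setting and 0 in the other (2976 and 3617 at an unadjusted p of 0.05). Erythroid markers were not entered as a covariate. How far the mixture of cells enters into these differences was not tested.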

How the data were processed

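Bulk RNA libraries of 10 spleens were strand-specific, per the labels. The submitters' processing notes list kallisto 0.44.0, DESeq and build mm10. The deposited signal holds normalized counts, 1 column per library. The annotation, the gene filter and the use of strand are not given in the sources used here. Values are not whole, and for values of 20 to 40 only 22.9% to 80.1% lay within 0.1 of a step, so reads were not recovered and count models were not fitted.

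Genes with 10 or more in at least 5 libraries (13567) entered limma-trend (limma 3.58.1, R 4.3.3) as log2(value + 1), two-sided, with Benjamini-Hochberg adjustment over all of them and calls at 0.05. A log2 difference is on that scale and understates the change of low genes. Means ± SD are of the normalized counts. GENCODE M21 (GRCm38) gave positions and, for 12397 tested genes, the length and GC share of the longest transcript of type protein-coding. The correction subtracted natural splines (5 degrees of freedom) on both, fitted in each library to deviations from gene means, so a real effect tied to length would be taken out as well.

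The members and all gene lists were chosen with earlier results of these data known. Pathway genes named are the 8 called genes of smallest p, Pdhx and Pdk4, and the others were chosen after their values were seen. 1 called pathway gene is not reported here by name. Genes like Pdpr were ranked among those with a mean of 100 or more. On data simulated for this comparison with 13567 genes, limma recovered 23 of 50 altered genes at a fold of 1.25, 37 of 50 at 1.5, 43 of 50 at 2 and 50 of 50 at 4, and called 12 of 13367 unaltered ones. The simulated noise was independent between genes and held no length trend. These counts therefore do not give the rate of false or missed calls in the real libraries. Alternatives changed the pseudocount, the filter, the scaling, covariates, the libraries and the variance model. Of the deposited columns, 0 were left out. Python 3.11.15, pandas 2.3.3 and matplotlib 3.10.9 made the tables and figures.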

Additional observations from a re-analysis of the deposited data

Results flagged for a closer look

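In 1 of 40 groups of 5 libraries tested (the members, Pdhx, Sirt1 and the 8 pathway genes named by rule, in both groups), a library lay farther from its nearest neighbour than Dixon's limit of 0.71 of the range allows. Acly stood at 10958 normalized counts in control library 5, at a gap of 0.729 of its group's range. Chance alone marks about 5% of groups. No member of the complex was marked.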

How the results depend on the processing

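Once the length slope, which did not overlap between the groups, entered the model, the log2 difference of Pdpr was -0.00173. It lay between -1.67 and -0.95 in all other alternatives, and between -1.57 and -1.12 with each library left out. With each library left out, all genes called in limma ranged from 2200 (without control library 2) to 4712, with 2335 without control library 1 and 2711 without Sirt1 deleted library 2, members other than Pdpr called lower from 0 to 4 and higher from 0 to 0, and pathway genes called lower from 4 to 8 and higher from 5 to 12. After correction for length and GC content 1810 genes were called, 0 members other than Pdpr were lower, and 2 pathway genes were lower and 3 higher. With the slope in the model 0 genes were called (577 unadjusted), with the macrophage and neutrophil markers 0 (3617), with the B cell markers 1 (2976), and without the 3 libraries of steepest slope 3 (3159); in each of these 4 settings 0 members other than Pdpr and 0 pathway genes, lower or higher, were called. A minimum of 50 and equal totals each gave 2 members lower (Pdp2 and Pdk1), and quantile normalization gave 1 higher (Pdhb).

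Signs reversed in these cases, and the cause was not tested. With the slope in the model Pdp1 stood at 0.117, Pdp2 at 0.0644, Pdk3 at 0.186, Dlat at 0.213, Dld at 0.161, Acly at 0.0425 and Hif1a at 0.133. After correction Pdk1 stood at 0.103, Pdhb at -0.0305 and Dlat at 0.0981. With the B cell markers Pdk3 stood at 0.0386, Dlat at 0.0527 and Dld at 0.00308. Dlat was at 0.0214 with quantile normalization and 0.0474 without the 3 steepest libraries, and with each library left out it ranged from -0.0781 to 0.0206, the latter without Sirt1 deleted library 5. Of the other values for single genes, 350 kept sign and side of the threshold, 44 lost the call and 7 gained one. No paired analysis was possible because the labels give no number shared by a control and a deleted sample.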
